A study of Mus musculus with 6 samples.

Results

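The T-lineage surface glycoproteins and co-receptors are 10 genes whose proteins sit on the surface of T cells and their precursors: the co-receptor genes Cd4, Cd8a and Cd8b1, the glycoprotein genes Thy1, Cd2, Cd5, Cd6, Cd27 and Cd69, and Cd44. They were chosen by name, and every probe set that the array's annotation assigns to one of these symbols alone was taken. This gave 18 probe sets out of 45037 tested, and 10 genes out of the 18193 that have a probe set with 1 symbol. Their RNA was measured on 3 arrays of Tcf1-/- and 3 arrays of Tcf1-/+ early thymic progenitors. Early thymic progenitors are the most immature T-cell precursors of the thymus, and the sort gate kept cells with CD44 and kit on their surface but without CD25 or the markers of mature lineages. The mice, of the C57Bl/6 background in both genotypes, were 10 weeks old. Tcf1 is a transcription factor of the T lineage, and Tcf1-/- mice carry its inactivation on both alleles. The other genotype is Tcf1-/+ in the titles and wild type in a second label, a conflict that the labels do not settle, and the name of the titles is used. The labels describe the allele no further and do not state how many animals were pooled for an array. The gene that encodes Tcf1 was not analysed here, so the labels were not checked on it.

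In the thymus these proteins appear in sequence. Progenitors enter with CD44 and CD27, acquire Thy1, CD2 and CD5 as they become T cells, and then display CD4 and CD8 together before choosing one of them. CD4 and CD8 bind major histocompatibility complex (MHC) molecules of class II and class I and bring the kinase Lck to the T-cell receptor. Thy1 and CD4 are not confined to T cells, since innate lymphoid cells carry Thy1 and lymphoid tissue inducer cells of the mouse can carry both.

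Values are deposited log2 expression levels per probe set, so a difference of 1 is a 2-fold difference. The array medians lay between 5.80 and 5.86. The bacterial control probe sets, for which these cells have no transcript, had a 95th percentile of 5.21, and this is called background. The RNA was amplified from small amounts, with an average yield of 3 ng per 1000 cells. Tcf1-/- replicate 2 stood apart from the rest, with correlations of 0.870 to 0.893 to the others over all probe sets, against 0.913 to 0.933 among the other 5 arrays. The 3′ minus 5′ difference of the transferrin receptor control probe sets, a measure of RNA quality, was 0.055 on it and -1.08 to -0.62 on the others. The mean over the probe sets of 3 Y-linked genes was 4.0, 5.98 and 6.73 on Tcf1-/- replicates 1, 2 and 3, against 3.62, 7.57 and 3.65 on the Tcf1-/+ arrays, so each genotype mixed arrays of low and high Y-linked signal. In whole-array RNA of a sorted pool, fewer cells that express a gene and less RNA per cell cannot be told apart. No source says that the arrays came from separate animals beyond the word biological in the titles, so the p-values measure the spread between these samples.

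The members differed in both directions, with 6 higher and 4 lower means in Tcf1-/- progenitors. Of all genes, 54.3% had a higher mean in Tcf1-/-. Cd4, Thy1 and Cd69 were higher on every Tcf1-/- array than on every Tcf1-/+ array, and Cd2, Cd5 and Cd27 were lower on every one. After quantile normalization the genotypes overlapped for Cd5, with Tcf1-/- at 5.21 to 6.53 and Tcf1-/+ at 6.51 to 7.24, and the other 5 genes stayed separate. As deposited, the 3 higher and 3 lower of 10 genes compare with 7.22% of all genes that separated the genotypes upward and 4.94% that separated them downward. Over all probe sets these shares were 6.51% and 5.27%. With limma, 0 member probe sets passed a Benjamini-Hochberg adjusted p of 0.05, and 0 of all 45037 did, which is 0% of them. At an unadjusted p under 0.05 limma counted 3 higher and 2 lower member genes, against 3.38% higher and 3.4% lower of all genes, and 5 member probe sets in all. Tests without moderated variances also called 0 after adjustment and counted 3 member probe sets before it, with no share over all probe sets given. The same 3 higher and 2 lower counts hold over the 18 probe sets, against 2.97% higher and 3.51% lower of all probe sets. Differences of at least 2-fold were seen for 6 of the 10 members and for 9.13% of all genes. The median difference was 0.13 over the members and 0.04 over all genes. The genes were picked with earlier results of these arrays known, so these shares describe the list and do not test it.

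**Figure D1:**
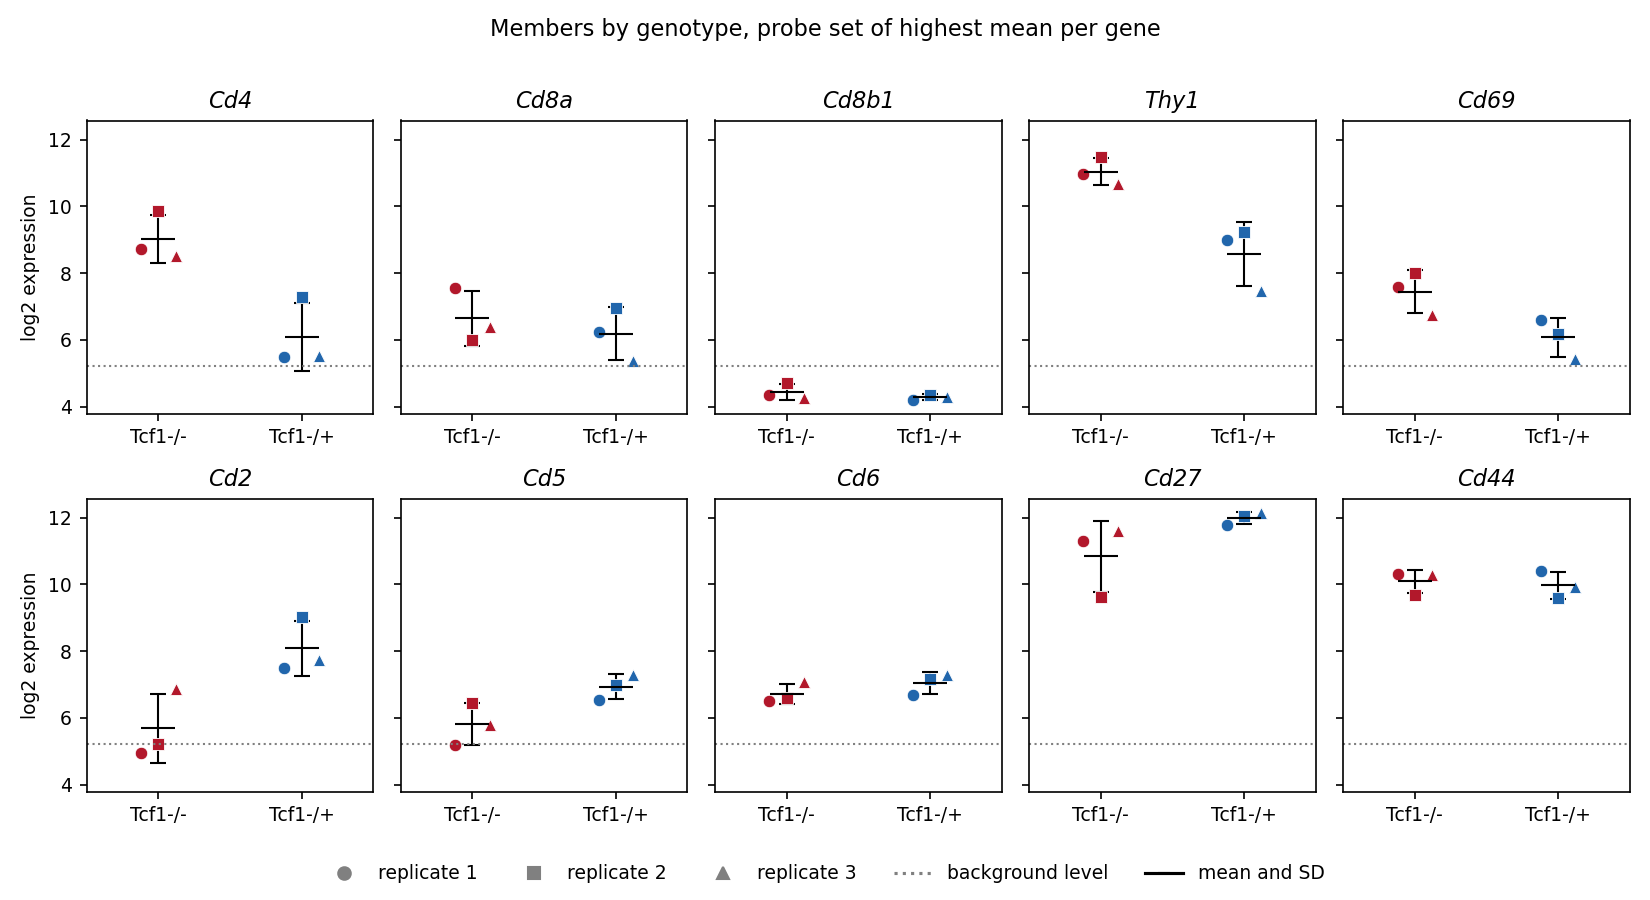
Log2 expression of the 10 members on the probe set of highest mean, with 1 panel per gene, the Tcf1-/- arrays at the left and the Tcf1-/+ arrays at the right. Symbols mark replicates 1 to 3, bars give the mean and SD (n = 3), and the dotted line marks background at 5.21. Cd4, Thy1 and Cd69 lie higher and Cd2, Cd5 and Cd27 lower on all Tcf1-/- arrays, while Cd8b1 lies under the line on all 6.

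Cd4, the co-receptor of class II-restricted T cells, had the largest difference of the list. On its brighter probe set (1419696_at) it stood at 8.73, 9.86 and 8.51 on Tcf1-/- replicates 1, 2 and 3, against 5.49, 7.27 and 5.53 on the Tcf1-/+ arrays. Tcf1-/+ replicates 1 and 3 read close to background, and replicate 2 was the highest of the Tcf1-/+ arrays. The means were 9.03 ± 0.72 in Tcf1-/- and 6.10 ± 1.02 in Tcf1-/+ (SD, n = 3 each), a 7.63-fold difference. On the log2 scale this is 2.93, with a 95% confidence interval of 1.44 to 4.43 and a limma adjusted p of 0.468. The difference was 1.91 within the arrays of high Y-linked signal, 2 Tcf1-/- against 1 Tcf1-/+. It was 3.22 within those of low signal, 1 Tcf1-/- against 2 Tcf1-/+. Here and for the genes below, each such value rests on 1 array of a genotype, in a split chosen after seeing the data.

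The second probe set of Cd4 (1427779_a_at) did not separate the genotypes. It read 5.43, 8.25 and 7.82 on Tcf1-/- replicates 1, 2 and 3, against 5.54, 5.54 and 5.59 on the Tcf1-/+ arrays. Tcf1-/- replicate 1 thus lay below all Tcf1-/+ arrays here, while it lay above all of them on the brighter probe set. The difference of the means was 1.61 with an interval of -0.18 to 3.41, and on the arrays of low Y-linked signal it was -0.13. The mean of both probe sets gave 2.27 with a limma adjusted p of 0.396.

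Cd8a and Cd8b1, neighbouring genes with no protein-coding gene between them in the RefSeq table, encode the 2 chains of the CD8 co-receptor. Of the 5 probe sets of Cd8a, 1 lay above background, and it read 7.55, 5.99 and 6.39 on the Tcf1-/- arrays, against 6.24, 6.96 and 5.37 on the Tcf1-/+ arrays. The genotypes overlapped, and the mean difference of 0.46 had an interval of -0.92 to 1.83. The value was -0.77 within the arrays of high Y-linked signal and 1.75 within those of low signal, each with 1 array of a genotype. The other 4 probe sets of Cd8a lay under background on all 6 arrays. Cd8b1 read between 4.24 and 4.71 on the Tcf1-/- arrays and between 4.19 and 4.36 on the Tcf1-/+ arrays, all under background, so no size is given for it. The beta chain therefore had no signal above background in either genotype.

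Thy1 encodes a small glycoprotein anchored to the membrane by a lipid and is the classical pan-T-cell marker of the mouse. It had 1 probe set, at 10.97, 11.49 and 10.69 on Tcf1-/- replicates 1, 2 and 3, against 8.98, 9.24 and 7.48 on the Tcf1-/+ arrays. All 6 values were well above background, and the genotypes were far apart on every array. The means were 11.05 ± 0.41 in Tcf1-/- and 8.57 ± 0.95 in Tcf1-/+ (SD, n = 3 each), a 5.58-fold difference. The log2 difference was 2.48 with an interval of 1.22 to 3.74 and a limma adjusted p of 0.468. It was 1.85 within the arrays of high and 2.74 within those of low Y-linked signal, and 1.94 without Tcf1-/+ replicate 3, the array of lowest Thy1.

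Cd69, a lectin-like receptor that is induced by activation and retains lymphocytes in tissue, stood at 7.59, 8.01 and 6.75 on the Tcf1-/- arrays, against 6.61, 6.18 and 5.43 on the Tcf1-/+ arrays. Tcf1-/- replicate 3 was only just above Tcf1-/+ replicate 1, and the genotypes did not overlap. The difference was 1.38 with an interval of 0.29 to 2.47 and a limma adjusted p of 0.691. It was 1.20 within the arrays of high and 1.57 within those of low Y-linked signal. Without Tcf1-/- replicate 2 it was 1.10, with an unadjusted p of 0.0636 from limma.

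Cd2, an adhesion receptor that binds CD48 in the mouse, ran the other way. It stood at 4.96, 5.23 and 6.88 on Tcf1-/- replicates 1, 2 and 3, against 7.51, 9.04 and 7.72 on the Tcf1-/+ arrays. Tcf1-/- replicate 1 was under background and replicate 2 at it, and all Tcf1-/+ arrays lay above every Tcf1-/- array. The means were 5.69 ± 1.04 in Tcf1-/- and 8.09 ± 0.83 in Tcf1-/+ (SD, n = 3 each). The difference was -2.40 with an interval of -3.98 to -0.82 and a limma adjusted p of 0.598. It was -2.98 within the arrays of high and -2.65 within those of low Y-linked signal.

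Cd5 and Cd6 are neighbouring genes for a pair of related receptors that dampen T-cell receptor signals. Cd5 stood at 5.20, 6.45 and 5.80 on the Tcf1-/- arrays, against 6.54, 7.0 and 7.28 on the Tcf1-/+ arrays. Tcf1-/- replicate 2 was only just below Tcf1-/+ replicate 1, and Tcf1-/- replicate 1 was at background. The difference was -1.12 with an interval of -2.06 to -0.19 and a limma adjusted p of 0.708, and it was -0.88 within the arrays of high and -1.71 within those of low Y-linked signal. Cd6, which binds ALCAM, read 6.49, 6.59 and 7.07 on the Tcf1-/- arrays, against 6.67, 7.15 and 7.29 on the Tcf1-/+ arrays. The genotypes overlapped, and the difference was -0.32 with an interval of -0.98 to 0.34.

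Cd27, a receptor of the tumour necrosis factor family that binds CD70 and marks lymphoid progenitors, stood at 11.30, 9.62 and 11.59 on Tcf1-/- replicates 1, 2 and 3, against 11.79, 12.06 and 12.13 on the Tcf1-/+ arrays. The Tcf1-/+ values lay close together, with an SD of 0.18 (n = 3) against 1.06 (n = 3) in Tcf1-/-. The difference was -1.15 with an interval of -2.46 to 0.15 and a limma adjusted p of 0.815. Tcf1-/- replicate 2 was the lowest array, and without it the difference was -0.55. It was -1.45 within the arrays of high and -0.66 within those of low Y-linked signal.

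The RefSeq promoter table held a window of 300 bases, from 250 before to 50 after a start, for 4 of the 10 members. These windows of Cd8a, Cd5, Cd27 and Cd44 were searched on both strands for the TCF/LEF words of 7 letters that begin with CTTTG and end in AT, AA, TT or TA. A word was found in 1 of the 4, the Cd27 window, and in 16.9% of 32851 windows of this length. The Cd27 and Cd5 stretches are shown because both genes separated the genotypes downward. Each runs 5′ to 3′ on the gene's strand and prints 280 bases of the window, from 250 before to 30 after the start. Capitals mark the word, which lies in Cd27 on the opposite strand with its first printed base 15 bases into the transcript.
Cd27 promoter, GRCm38.p6 chr6:125236998-125237277, minus strand: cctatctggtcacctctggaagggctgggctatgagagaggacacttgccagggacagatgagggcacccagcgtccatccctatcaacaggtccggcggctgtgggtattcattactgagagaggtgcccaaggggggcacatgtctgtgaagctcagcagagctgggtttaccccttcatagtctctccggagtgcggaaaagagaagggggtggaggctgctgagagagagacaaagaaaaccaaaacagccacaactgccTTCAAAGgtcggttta
Cd5 promoter, GRCm38.p6 chr19:10738945-10739224, minus strand: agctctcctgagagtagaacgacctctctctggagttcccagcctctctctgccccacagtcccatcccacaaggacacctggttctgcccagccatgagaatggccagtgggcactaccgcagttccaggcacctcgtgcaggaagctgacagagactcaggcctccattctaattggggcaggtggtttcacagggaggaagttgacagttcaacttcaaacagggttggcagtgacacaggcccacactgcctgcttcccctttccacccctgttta
A match of 7 letters is a description of the sequence and says nothing of binding.

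Cd44, the hyaluronan receptor used in the sort gate, was measured by 4 probe sets. Its brightest (1434376_at) read 10.31, 9.68 and 10.29 on the Tcf1-/- arrays, against 10.39, 9.60 and 9.94 on the Tcf1-/+ arrays, a difference of 0.12 with an interval of -0.62 to 0.86. Another (1423760_at) differed by -0.23. The next (1452483_a_at) differed by 0.41, with Tcf1-/+ replicate 1 at 7.78 and the other 5 arrays between 9.12 and 9.79. The last lay under background on all 6 arrays. The probe sets of Cd44 thus differed in sign, each by less than its error. Of the other gate genes, Kit stood at 9.99, 7.45 and 9.60 on the Tcf1-/- arrays, against 10.80, 10.50 and 9.83 on the Tcf1-/+ arrays. Il2ra, which encodes the CD25 that the gate excludes, was at 9.32, 10.97 and 10.53 on the Tcf1-/- arrays, against 9.22, 9.38 and 10.17 on the Tcf1-/+ arrays. RNA of Il2ra was thus above background on all 6 arrays, and both genes overlapped between genotypes. The other probe set of Il2ra went the other way, at 5.53 in Tcf1-/- and 6.83 in Tcf1-/+, a difference of -1.29 (SE 0.63), also with overlap. Without Tcf1-/- replicate 1, 2 of the 3 gate genes had an unadjusted p under 0.05 in limma, against 0 with all arrays.

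**Figure D2:**
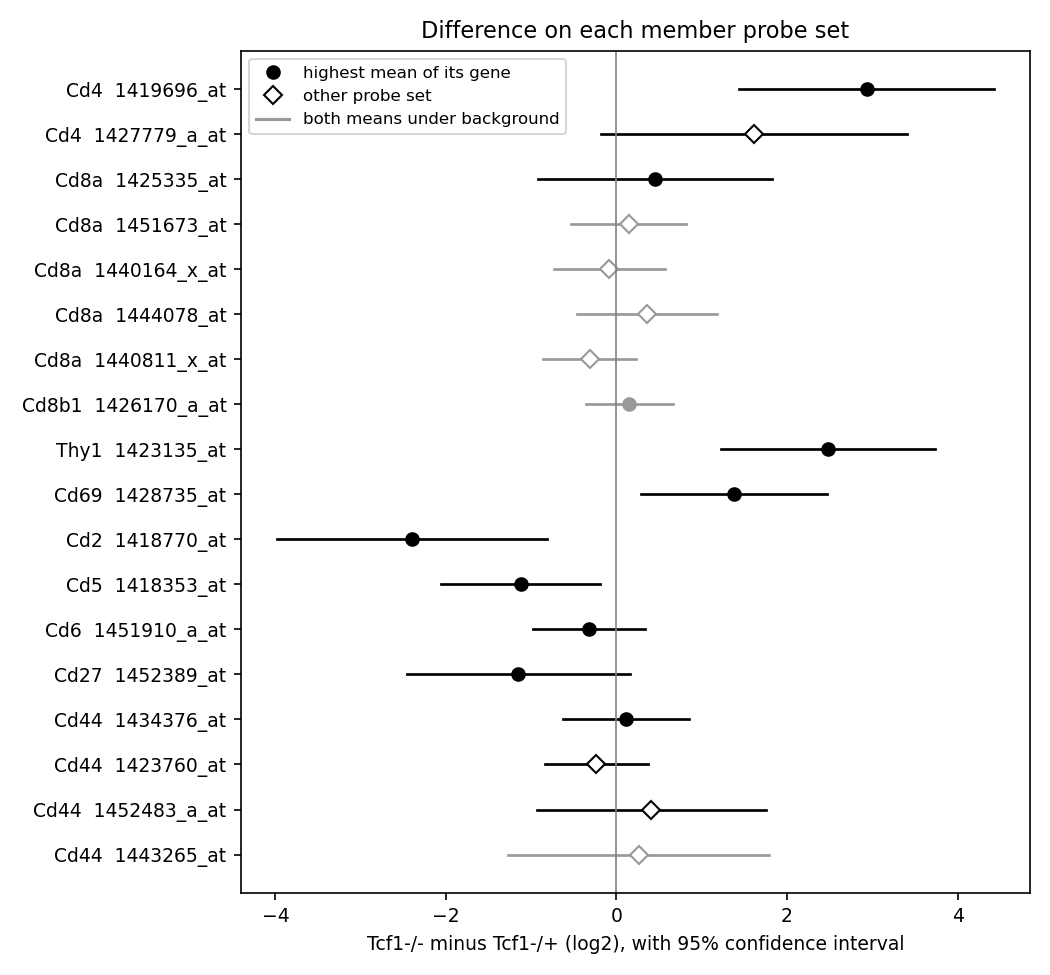
Log2 difference between genotypes, Tcf1-/- minus Tcf1-/+, for the 18 member probe sets, with the 95% confidence interval from limma. Filled circles are the probe set of highest mean per gene, open diamonds the others, and grey marks probe sets with both means under background. The intervals of Cd4 (1419696_at), Thy1 and Cd69 lie above 0, and those of Cd2 and Cd5 below 0.

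The order of the members above background by difference was Cd4, Thy1, Cd69, Cd8a, Cd44, Cd6, Cd5, Cd27 and Cd2, with Cd8b1 left out. Thy1 followed Cd4 at 2.48 against 2.93, with intervals that overlap, and likewise Cd5 at -1.12 and Cd27 at -1.15. Over the 6 arrays the levels of Thy1 and Cd4 had a Pearson r of 0.937. It is given with no p, since the arrays fall into 2 genotypes and share 1 scale. Among 10619 genes brighter than the median probe set, the 5 most like Thy1 over the 6 arrays were 9430038I01Rik, Trgv4, Mtap, Tdrkh and Mynn, with r of 0.984 to 0.995. The 5 most like Cd4 were Zfp420, Gm36723, Ifi35, Man1c1 and Serpinb6e, with r of 0.986 to 0.989. A likeness above 0.9 was met by 120 genes for Thy1 and 157 for Cd4, so these names rest on small differences in r.

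**Figure D3:**
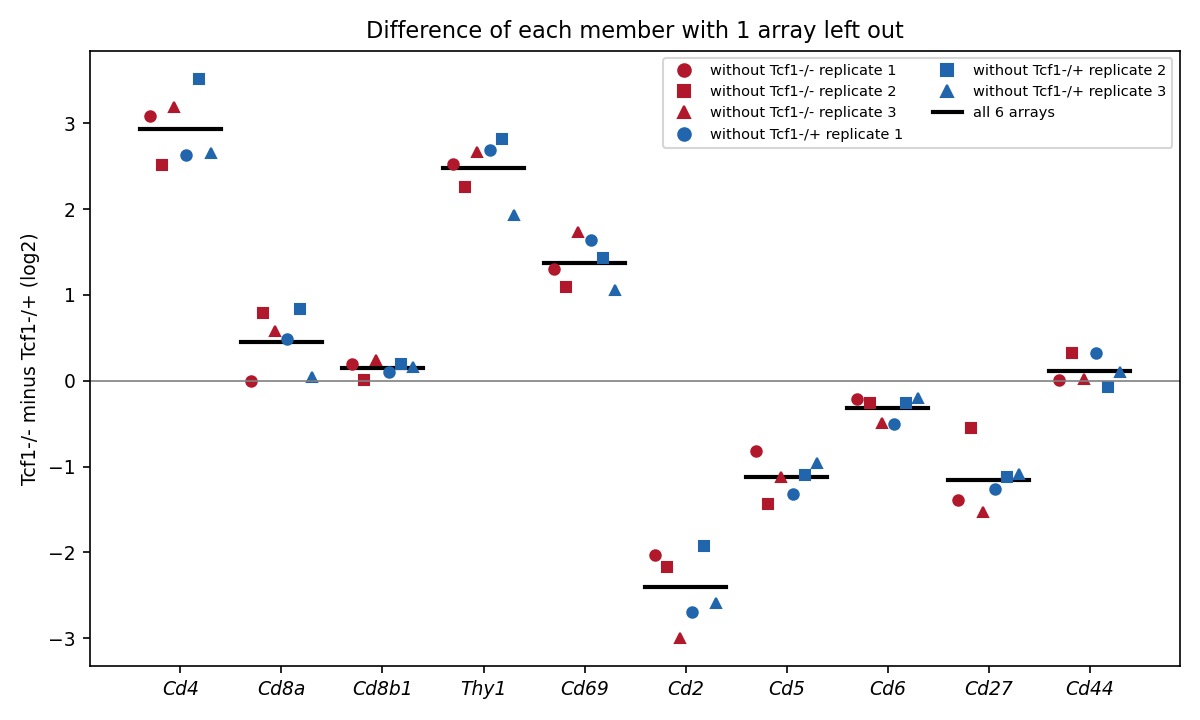
Difference of each member, Tcf1-/- minus Tcf1-/+ on the log2 scale, with 1 array left out in turn (symbols) and with all 6 arrays (black bars). Cd4 stays between 2.52 and 3.52, Thy1 between 1.94 and 2.82 and Cd2 between -2.99 and -1.92, whereas Cd27 moves to -0.55 without Tcf1-/- replicate 2 and Cd44 turns sign.

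Of 15 measured ligands of the members, 6 had higher and 9 lower means, with 1 higher and 1 lower at unadjusted p under 0.05 and a median difference of -0.17. With 1 array left out in turn, 0 to 3 of the 15 met that p, with 0 without Tcf1-/+ replicate 3, and 0 did in tests without moderated variances. H2-D1, an MHC class I heavy chain of the kind CD8 binds, read 12.75, 12.83 and 12.88 on the Tcf1-/- arrays, against 11.84, 12.45 and 11.86 on the Tcf1-/+ arrays. Its difference was 0.78 (SE 0.24), 7 of its 8 other probe sets had the same sign, and cross-hybridisation between class I genes cannot be separated on these probe sets. H2-K1, another class I heavy chain, differed by 0.62 (SE 0.29), with the same sign on its 3 other probe sets. H2-Eb1, a class II chain of the kind CD4 binds, read 5.93, 6.63 and 7.26 on the Tcf1-/- arrays, against 7.07, 9.42 and 8.40 on the Tcf1-/+ arrays, and the genotypes overlapped.

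Of the intracellular partners, 0 were higher and 2 lower of 18 measured at unadjusted p under 0.05, and the median difference was 0.01. Those named by the rule were the 3 proteins that link CD44 and other surface proteins to actin. Radixin, encoded by Rdx, differed by -0.63 (SE 0.22) and ezrin, encoded by Ezr, by -0.57 (SE 0.23), both without overlap. Moesin, encoded by Msn, differed by 0.57 (SE 0.29) with overlap. The other probe sets of Rdx and Msn had the same sign as these, and the other one of Ezr, under background, had the opposite sign. With 1 array left out in turn, 0 to 4 of the 18 partners had an unadjusted p under 0.05 in limma, with 0 without Tcf1-/- replicate 2 or Tcf1-/+ replicate 3 and 4 without Tcf1-/+ replicate 1 or 2. Lck was not analysed here.

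Of 28 other lymphocyte surface glycoproteins, 9 had higher and 19 lower means, with 4 higher and 3 lower at unadjusted p under 0.05 and a median difference of -0.12. Of these 28 genes, 6 also stand in another list used here. Cd82, a tetraspanin, read 10.67, 9.85 and 10.55 on the Tcf1-/- arrays, against 8.16, 9.45 and 8.11 on the Tcf1-/+ arrays, a difference of 1.78 (SE 0.45), and 0.37 on its other probe set. Icos, a costimulatory receptor, differed by 3.22 (SE 0.56), with 2.75 and 4.45 on its other probe sets. Cd28, its relative, averaged 4.43 in Tcf1-/-, under background, against 7.40 in Tcf1-/+. Without Tcf1-/- replicate 2 or without Tcf1-/+ replicate 2, 4 of the 28 had an unadjusted p under 0.05 in place of 7, and 3 did in tests without moderated variances.

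Of 17 regulators of the Cd4 and Cd8 loci, 9 had higher and 8 lower means, with 1 higher and 2 lower at unadjusted p under 0.05 and a median difference of 0.22. That count of 3 became 5 without Tcf1-/- replicate 2 or 3 or Tcf1-/+ replicate 2 or 3. It became 2 without replicate 1 of either genotype. Runx3, a repressor of Cd4 in CD8 T cells, differed by 0.71 (SE 0.48), Runx1 by -0.13 (SE 0.35) and Zbtb7b, which sets the CD4 fate, by 0.22 (SE 0.32). The other probe sets of Runx3 and Zbtb7b differed by 0.29 and 0.72. For Gata3 the difference was -0.39 (SE 0.40), and for Bcl11b, a T-lineage commitment factor, it was 0.62 (SE 0.32), with 0.11, 0.04 and 0.17 on its 3 other probe sets. The genotypes overlapped for each of these 5. Those of smallest p were Id2, an inhibitor of E proteins, at 3.19 (SE 0.49), Lef1, a relative of Tcf1, at -0.91 (SE 0.19), and Satb1, a chromatin organiser, at -0.73 (SE 0.23).

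No gene of the marker lists for other cell types passed the adjusted threshold of limma, and their counts are at unadjusted p. Of 9 measured markers of lymphoid tissue inducer cells, 8 had higher means in Tcf1-/-, and 4 of them had an unadjusted p under 0.05 in limma, both with and without Tcf1-/- replicate 2. Their mean level was 7.94, 8.47 and 8.44 on the Tcf1-/- arrays, against 6.98, 7.06 and 6.42 on the Tcf1-/+ arrays, with no overlap. The chemokine receptor gene Ccr6 read 9.98, 10.04 and 9.89 on the Tcf1-/- arrays, against 5.27, 7.65 and 6.29 on the Tcf1-/+ arrays, a difference of 3.56 (SE 0.59). Cxcr5, another chemokine receptor gene, read 5.79, 7.39 and 8.40 on the Tcf1-/- arrays, against 3.96, 3.93 and 3.8 on the Tcf1-/+ arrays, all 3 under background. Nrp1 differed by 3.27 (SE 0.38) with the same sign on its 3 other probe sets. Il17a, a cytokine gene, was under background in both genotypes.

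Of 18 measured NK and innate lymphoid markers, 13 had higher means, with 8 higher and 1 lower at unadjusted p under 0.05. Their mean level was 8.41, 8.88 and 8.85 on the Tcf1-/- arrays, against 7.02, 7.67 and 7.27 on the Tcf1-/+ arrays. Those of smallest p were Fcer1g, a signalling chain, at 2.27 (SE 0.31), Id2 as above, and Gzmb, a cytotoxic protease, at 4.06 (SE 0.69). The 1 lower at that p was Klrd1, which differed by -1.49 (SE 0.60) without overlap. Nkg7, Eomes, Tyrobp and Tbx21 also had lower means, with overlap, and Zbtb16 differed by 0.01 (SE 0.23). These 6 genes were named after their values were seen. Il1rl1 and Klrb1c of this list were not measured. Without Tcf1-/- replicate 2, 7 of the 18 had an unadjusted p under 0.05.

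Double-positive and mature T-cell markers mostly ran the other way, like Cd2 and Cd5 but unlike Cd4, Thy1 and Cd69. Of 14 measured, 12 had lower means, with 0 higher and 6 lower at unadjusted p under 0.05 in limma. Their mean level was 6.00, 6.09 and 6.38 on the Tcf1-/- arrays, against 6.80, 7.38 and 6.91 on the Tcf1-/+ arrays. Cd3e differed by -1.66 (SE 0.55), Gimap6 by -1.03 (SE 0.35) and Cd28 as above, and Ptcra was under background in both genotypes. The 2 with higher means were Ccr7 at 1.40 (SE 0.65), with overlap, and Cd40lg at 0.37 (SE 0.20), without overlap. Cd40lg averaged 5.11 in Tcf1-/+, under background. Rag2 differed by -0.09 (SE 0.32). Ccr7, Cd40lg and Rag2 were named after their values were seen. With 1 array left out in turn 2 to 5 of the 14 had an unadjusted p under 0.05 in place of 6, with 2 without Tcf1-/- replicate 1 and 3 without Tcf1-/- replicate 2 or Tcf1-/+ replicate 2. Tests without moderated variances counted 0 of the 14. Of these 14 genes 5 also stand in another list. The part of any of these cell types in the differences of the members was not tested.

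**Figure D4:**
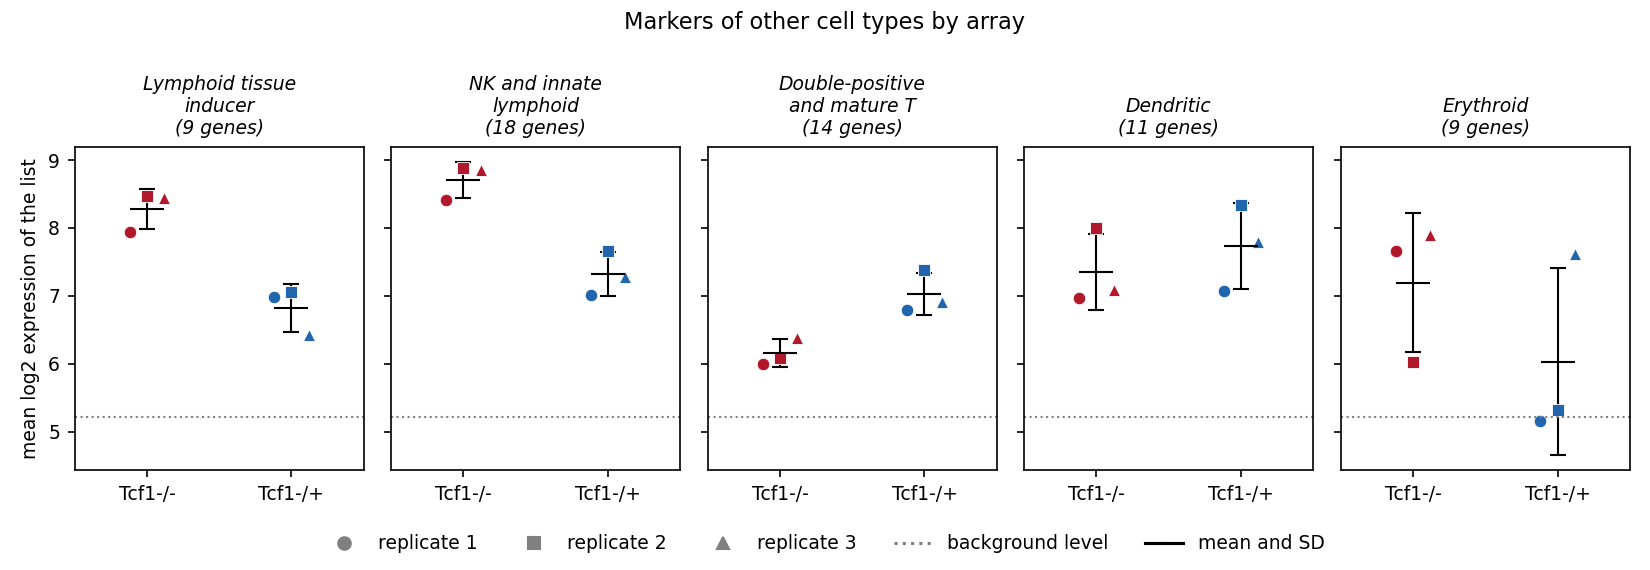
Mean log2 expression of 5 lists of markers of other cell types on each array, with the Tcf1-/- arrays at the left of each panel and the Tcf1-/+ arrays at the right. Symbols mark replicates 1 to 3, bars give the mean and SD (n = 3), and the dotted line marks background. The first 3 lists separate the genotypes, the lymphoid tissue inducer and NK lists upward and the T-cell list downward, while the dendritic and erythroid lists overlap.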

How the data were processed

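Total RNA of the sorted cells was amplified over whole transcripts and hybridized with a biotin label to Affymetrix Mouse Genome arrays, per the labels' protocols. The authors deposited log2 values per probe set; the summarization and normalization behind them are not given in the sources used here, and the log2 scale was read from the values (2.15 to 14.4 over the probe sets tested). Arrays have no read depth, so their number limits the precision. Of 45101 probe sets, 64 controls were left out. The platform annotation gave 1 symbol to 34945, several to 932 and none here to 9160, and probe sets with several symbols named no gene. Columns not used numbered 0. Where a gene had several probe sets, the one brightest on average stood for it.

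Genotypes, taken from the titles, were compared over all probe sets by lmFit and eBayes of limma 3.58.1 under R 4.3.3, two-sided and without covariates, with Benjamini-Hochberg adjustment, and every difference is Tcf1-/- minus Tcf1-/+. The code of the fit was tried on simulated arrays with planted differences and independent normal noise. These arrays did not copy the outlying array or the Y-linked split seen here. Exact permutation of 3 against 3 arrays cannot give a p below 0.1 and was not used. Background is the 95th percentile of 27 bacterial control probe sets. Both genotypes number replicates 1 to 3, and the titles state no pairing. Deviations of same-numbered arrays from their group means had r of 0.0298, 0.0445 and 0.0117, against -0.0899 to 0.0612 for arrays of unlike number. With 3 arrays per genotype these values cannot settle whether arrays were paired. The main fit did not treat the numbers as pairs, and the replicate block is among the alternatives.

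The members and the 14 gene lists were chosen with earlier results of these data known. Named genes are all members, the 3 of smallest unadjusted p in each list (higher mean above 5.88, the median probe set), the 5 most like Thy1 and Cd4, and 9 genes always given, of which Lck was not analysed here. All 10 members were found in the RefSeq table of GRCm38.p6, used for names, neighbours and promoters. Alternatives were the replicate block, quantile normalization, a common median, a filter, a floor, array weights, trend and robust variances, Welch tests, the Y-linked level as a covariate, the mean of probe sets, and leaving out each array. Arrays split by Y-linked signal, both low and high, were 2 alternatives chosen after seeing the data.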

Additional observations from a re-analysis of the deposited data

How the results depend on the processing

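No alternative brought a member past a limma adjusted p of 0.05, and 0 of all probe sets passed in each of them; adjusted p-values of the members lay between 0.314 and 1. Cd4, Thy1, Cd69, Cd2, Cd5, Cd6 and Cd27 kept their direction throughout, and Thy1 and Cd2 kept an unadjusted p under 0.05 in all 18 alternatives, Cd4 in 17, Cd69 and Cd5 in 12 each, and Cd27 in 1. With the replicate block the adjusted p of Cd4 was 0.616 and 5 member probe sets had an unadjusted p under 0.05, as without the block, and it changed no call. That count was 3 with Welch tests and lay between 3 and 5 with 1 array left out, with 3 without Tcf1-/+ replicate 3. The number of member probe sets whose genotypes did not overlap was 6, 5 with quantile normalization, where Cd5 overlapped, and 6 to 9 with 1 array left out, which makes separation easier. For neither count is the share over all probe sets given in these alternatives. Whether the members stand out in them cannot be read from the counts. Over all lists but the Y-linked one, 33 genes had an unadjusted p under 0.05, and 19 did with Welch tests. On the double-positive and mature T-cell list that count was 0 with Welch tests, against 6. With 1 array left out Cd44 lay between -0.0706 and 0.32, and on the arrays of high Y-linked signal Cd8a was at -0.77. Other probe sets also turned sign: Cd4 (1427779_a_at) at -0.13 on arrays of low signal; Cd44 (1443265_at) between -0.36 without Tcf1-/+ replicate 3 and 0.64, at -0.02 without Tcf1-/- replicate 3, -0.0946 on arrays of low and -0.13 of high signal; Cd44 (1452483_a_at) between -0.20 without Tcf1-/+ replicate 1 and 0.80, and at -0.49 on arrays of high signal; Cd8a (1440164_x_at) between -0.246 and 0.14 without Tcf1-/+ replicate 2, and at 0.13 on arrays of low signal; and Cd8a (1451673_at) at -0.30 on arrays of high signal. Cd44 (1443265_at) and both of these Cd8a probe sets lay under background on all 6 arrays, so no direction is read from them. The cause of the turned signs was not tested. Cd8b1 has no value under the filter or the floor, since it lies under background. Overlap counts were not made on the split arrays, where 2 arrays face 1.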

Other observations

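Markers of cell types that can also carry the members were mixed. Of 11 dendritic markers, 4 had higher and 7 lower means, with 0 higher and 2 lower at unadjusted p under 0.05. Flt3, a cytokine receptor, differed by -1.53 (SE 0.42) and Cd74, the class II invariant chain, by -1.61 (SE 0.46), both without overlap. Irf8, a transcription factor, was at -1.17 (SE 0.55) and at 0.26 on its other probe set. Averaged over the list, the Tcf1-/- arrays stood at 6.97, 8.0 and 7.08, against 7.07, 8.33 and 7.80 for Tcf1-/+, with overlap. Of 11 B-lineage markers, 8 had higher and 3 lower means, with 1 higher and 1 lower at unadjusted p under 0.05. Blk, a Src-family kinase, read 8.64, 9.82 and 8.95 on the Tcf1-/- arrays, against 7.97, 5.86 and 6.26 on the Tcf1-/+ arrays, while Cd79b differed by -0.59 (SE 0.73) and Vpreb3 by 0.16 (SE 0.21), both with overlap. The lower one, Pou2af1, named after its values were seen, averaged 3.41 in Tcf1-/-, under background, against 5.25 in Tcf1-/+, with no overlap.

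Of 12 myeloid markers, 8 had higher means, with 1 higher and 0 lower at unadjusted p under 0.05. That count was 0 without Tcf1-/- replicate 1 or 3 or Tcf1-/+ replicate 1, with quantile normalization and with Welch tests, and 2 without Tcf1-/+ replicate 3. Ngp differed by 1.95 (SE 0.77) from a Tcf1-/+ mean under background, S100a8 by 2.64 (SE 1.14) and Csf1r, the receptor for macrophage colony-stimulating factor, by -1.63 (SE 1.19), with signs that differed between its 3 probe sets. Of 9 erythroid markers, 7 had higher means, with Car1 at 3.41 (SE 1.52), Gata1 at 1.29 (SE 0.64) and Klf1 at 1.97 (SE 1.23), each with overlap. Averaged over the 9, the Tcf1-/- arrays stood at 7.66, 6.02 and 7.90, against 5.15, 5.32 and 7.62 for Tcf1-/+. All 10 stromal markers had higher means, by a median of 0.09, and 4 of them had both means under background. Krt5, an epithelial keratin, differed by 1.10 (SE 0.73) and Pecam1, an endothelial adhesion protein, by 0.01 (SE 0.63).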
